A study of Mus musculus with 4 samples.

Results

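Transcript levels of 10 genes of the ETS family of transcription factors were read on 4 microarrays of sorted mouse bone marrow cells. The genes were Spi1, Ets1, Ets2, Fli1, Elf1, Elf4, Etv6, Erg, Gabpa and Spic, chosen by name among 12393 named genes, and the platform annotation assigned 17 of the 22690 probe sets to them. Ets1 and Ets2 were lower by 2-fold or more in cells lacking Gfi1 than in each of the other 3 populations, though for Ets1 against GFP-low cells this held at 2 of its 4 probe sets and not with the probe sets averaged. The dimmest probe set of Ets1 was too dim to measure in cells lacking Gfi1. There the drop was only at least 1.63-fold against granulocytes and at least 1.40-fold against GFP-high cells. Erg, which was low on all 4 arrays, was over 2-fold higher in granulocytes than in Gfi1-deficient and in GFP-low cells. The remaining 7 genes, with Spi1 among them, reached 2-fold in no comparison. Spic was too dim to measure in Gfi1-deficient and GFP-low cells, so its differences from these cells are only lower bounds or could not be had.

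All mice were untreated C57BL/6 animals of 8 weeks, backcrossed for at least 10 generations and kept free of specific pathogens, and all carried GFP, the green fluorescent protein, knocked into the Gfi1 locus, where it reports the activity of that gene. Gfi1 encodes a transcriptional repressor of blood cell development, and the study asked how it steers the choice between monocytes and granulocytes. The populations were CD11b+, Gr1-low cells of a GFP:Gfi1 KI/KI mouse, which lacks Gfi1 (Gfi1-deficient cells), CD11b+, Gr1-high granulocytes of GFP:Gfi1 KI/WT mice, and CD11b+, Gr1-low cells of GFP:Gfi1 KI/WT mice split by reporter brightness into GFP-high cells and GFP-low cells. No population had both alleles of Gfi1 intact, the labels name no GFP gate for the Gfi1-deficient cells, and they do not say how many animals gave the RNA of an array. Each population was measured on 1 array, so every value below describes those arrays, no test was possible, and 6 pairwise comparisons were made by size alone.

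ETS factors share a DNA-binding domain that recognises a GGAA core, and differ in partners, in tissue and in whether they activate or repress. In myeloid cells the best known is PU.1, the product of Spi1, without which neither macrophages nor neutrophils form normally and which acts with IRF8 on monocyte genes and with C/EBP factors on granulocyte genes. Gfi1 is known to bind PU.1 and to oppose it.

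Levels are the deposited values, taken as log2. A floor of 5.18, the 40th percentile over the whole table, was set, below which a level was treated as not measured. A difference with 1 array below the floor is a bound, written as at least that size. The labelled names were checked on markers, and in averages over a list a level below the floor was set to the floor. The 9 monocyte markers averaged a log2 level of 12.16 in Gfi1-deficient cells, 8.32 in granulocytes, 7.64 in GFP-high cells and 12.25 in GFP-low cells, and the 10 granulocyte markers averaged 8.98, 13.42, 12.17 and 10.66 on the same arrays. The label of monocytes is therefore not borne out by these markers in GFP-high cells, in which all 9 monocyte markers lay 2-fold or more below GFP-low cells. Some genes of other cell types were also high there. The eosinophil granule gene Epx read 8.11 in Gfi1-deficient cells, 5.02 in granulocytes, 10.18 in GFP-high cells and 4.75 in GFP-low cells, and its companion Prg2 read 10.54, 7.29, 12.16 and 7.53. The 5 measured eosinophil markers averaged 6.96, 5.97, 8.28 and 5.65 on those arrays. Between Gfi1-deficient and GFP-low cells 3 of them could be compared. Of these, 2 were 2-fold or more higher in Gfi1-deficient cells and 0 lower, with 0.64% and 1.27% of all genes. Kit, a receptor of stem and progenitor cells and of mast cells, read 4.42, 6.51, 8.11 and 3.96 on the arrays in the order above. The 8 measured stem and progenitor markers, Kit among them, averaged 5.86, 6.13, 6.155 and 5.86. Of the 4 above the floor in GFP-high or GFP-low cells, only Kit was 2-fold or more higher in GFP-high cells, and 0 were lower. The part of such cells in the ETS levels of GFP-high and of Gfi1-deficient cells was not tested. The array of Gfi1-deficient cells also differed in Xist, which is made from the inactive X chromosome, at 5.80 against 9.56 to 10.93 on the other arrays, so the sex of the animals and the genotype cannot be told apart.

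Ets1 had the widest range of the 10 genes. Ets1 is a factor of T, B and NK lymphocytes. At its brightest probe set it read a log2 level of 4.32 in Gfi1-deficient cells, 10.10 in granulocytes, 10.34 in GFP-high cells and 6.32 in GFP-low cells. Granulocytes and GFP-high cells were thus both high, GFP-low cells were low and Gfi1-deficient cells were below the floor. Ets1 was at least 30.3-fold lower in Gfi1-deficient cells than in granulocytes and at least 35.7-fold lower than in GFP-high cells. It was 13.7-fold higher in granulocytes and 16.1-fold higher in GFP-high cells than in GFP-low cells. Granulocytes and GFP-high cells were 1.18-fold apart. In Gfi1-deficient cells it was at least 2.21-fold lower than in GFP-low cells.

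Ets1 was read by 4 probe sets, which differed in level. The next brightest read 4.89 in Gfi1-deficient cells, 9.79 in granulocytes, 9.84 in GFP-high cells and 6.30 in GFP-low cells. The third read 4.997, 7.14, 7.37 and 5.27 on those arrays in the same order. The dimmest read 4.13, 5.88, 5.66 and 4.53, so that both low populations were below the floor and the difference between granulocytes and GFP-low cells was a bound of 0.71 on the log2 scale. In all 4 probe sets granulocytes and GFP-high cells were above both other populations. In the 3 brighter ones Gfi1-deficient cells were below the floor and GFP-low cells above it, while the dimmest gave these populations no order. The step between Gfi1-deficient and GFP-low cells reached 2-fold in the 2 brightest probe sets, and was at least 0.10 on the log2 scale in the third.

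**Figure D1:**
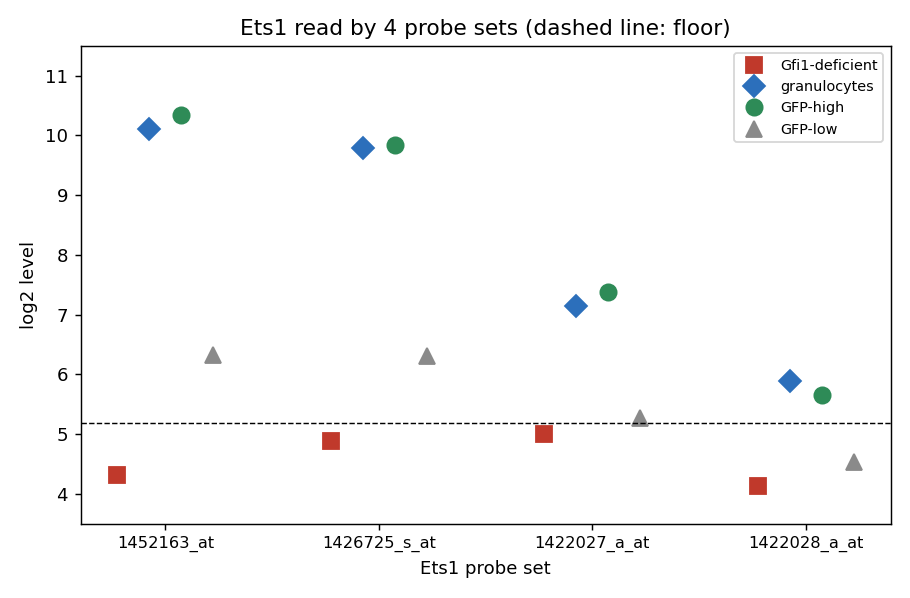
Ets1 by probe set: log2 level (vertical axis) of each of its 4 probe sets, with 1 point for each array and the floor of 5.18 as a dashed line. Granulocytes and GFP-high cells lie together above GFP-low and Gfi1-deficient cells in every probe set, and the spacing shrinks as the probe sets get dimmer.

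Lymphocyte markers were read beside Ets1. Of 8 measured T cell markers, 3 were above the floor in Gfi1-deficient cells, 4 in granulocytes, 4 in GFP-high cells and 3 in GFP-low cells, and Cd3g, Cd8a, Cd2 and Cd5 were below it on all 4 arrays. Cd3d, a chain of the T cell receptor complex, read 4.98 in Gfi1-deficient cells, 8.48 in granulocytes, 6.23 in GFP-high cells and 5.13 in GFP-low cells. Cd3d was highest on the granulocyte array, while Cd3e, Cd4 and Lat were above the floor on all 4 arrays and within 2-fold in every comparison. The 8 measured NK cell markers averaged 5.18 in Gfi1-deficient cells, 5.38 in granulocytes, 5.25 in GFP-high cells and 5.42 in GFP-low cells, with Ncr1 below the floor throughout. In Gfi1-deficient cells 0 of the 8 were above the floor, so that average is the floor itself, beside 5 above it in granulocytes, 3 in GFP-high cells and 5 in GFP-low cells. The 8 measured B cell markers averaged 5.60 in Gfi1-deficient cells, 6.52 in granulocytes, 5.70 in GFP-high cells and 5.90 in GFP-low cells, with Pax5 and Ebf1 below the floor throughout. The B cell list was thus highest in granulocytes, and at 5.70 in GFP-high cells it lay below GFP-low cells. The part of lymphocytes in the Ets1 levels of these arrays was not tested. In bulk samples fewer cells of a type and less RNA per cell cannot be told apart.

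Ets2, a close relative of Ets1 that responds to Ras and MAP kinase signalling and is active in macrophages, had the next widest range. Its only probe set read a log2 level of 7.03 in Gfi1-deficient cells, 11.10 in granulocytes, 9.34 in GFP-high cells and 8.09 in GFP-low cells. The 4 arrays were well apart and all above the floor. Ets2 was 16.8-fold lower in Gfi1-deficient cells than in granulocytes, 4.97-fold lower than in GFP-high cells and 2.09-fold lower than in GFP-low cells. Granulocytes had 3.38-fold more than GFP-high cells and 8.03-fold more than GFP-low cells, and GFP-high cells 2.38-fold more than GFP-low cells. Ets2 was the only one of the 10 genes at least 2-fold apart in all 6 comparisons.

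Gabpa encodes the DNA-binding subunit of GABP, a factor of housekeeping and mitochondrial genes, and its order of arrays was the opposite of Ets2 in that granulocytes were lowest. It read 8.20 in Gfi1-deficient cells, 7.58 in granulocytes, 8.17 in GFP-high cells and 8.11 in GFP-low cells. Granulocytes were 1.53-fold, 1.51-fold and 1.44-fold below the other 3 populations, under the 2-fold rule. A dimmer probe set read 7.25, 6.66, 7.47 and 6.90 on the same arrays, with granulocytes again lowest. Gabpb1, the partner subunit of GABP, read 6.58 in Gfi1-deficient cells, 7.72 in granulocytes, 7.96 in GFP-high cells and 6.65 in GFP-low cells. The subunits of GABP therefore did not share an order, and Gabpb1 was 2.20-fold lower in Gfi1-deficient cells than in granulocytes and 2.60-fold lower than in GFP-high cells.

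The promoters of Ets2 and Gabpa are shown because granulocytes were highest in the transcript of Ets2 and lowest in that of Gabpa, and because both lie on chromosome 16. Each window runs from 250 bases before to 50 bases after a RefSeq start site in build GRCm38.p6, on the + strand, at chr16:95702157-95702456 for Ets2 and chr16:84834874-84835173 for Gabpa. Capitals mark the ETS core GGAA on the printed strand, or TTCC where the core lies on the other strand.
Ets2: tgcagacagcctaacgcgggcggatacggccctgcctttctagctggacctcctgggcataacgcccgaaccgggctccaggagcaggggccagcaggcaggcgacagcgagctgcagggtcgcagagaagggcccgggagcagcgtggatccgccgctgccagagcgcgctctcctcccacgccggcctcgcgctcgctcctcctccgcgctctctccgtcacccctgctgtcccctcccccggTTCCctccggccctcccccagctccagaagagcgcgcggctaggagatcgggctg
Gabpa: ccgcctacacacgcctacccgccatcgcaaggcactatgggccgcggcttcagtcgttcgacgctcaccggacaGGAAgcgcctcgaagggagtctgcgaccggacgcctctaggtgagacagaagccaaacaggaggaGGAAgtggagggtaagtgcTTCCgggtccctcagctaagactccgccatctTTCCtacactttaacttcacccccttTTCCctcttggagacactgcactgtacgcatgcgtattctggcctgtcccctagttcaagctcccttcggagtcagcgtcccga
The Ets2 window held 1 match and the Gabpa window 5. The core is short, and 96.0% of 32851 promoter windows of this length held at least 1 match, with a median of 3. The longer GAGGAAG, part of the sequence that PU.1 prefers, occurred in the Gabpa window, where it contains one of the marked cores, and in 13.6% of all windows. RefSeq windows were found for 7 of the 10 genes, and of their 11 windows only that of Gabpa held GAGGAAG. Such matches describe the letters and are not binding sites.

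Erg and Fli1 are close relatives known for roles in blood stem cells and megakaryocytes. Erg read a log2 level of 5.25 in Gfi1-deficient cells, 6.51 in granulocytes, 5.76 in GFP-high cells and 5.25 in GFP-low cells. It was low throughout, just above the floor on the arrays of Gfi1-deficient and GFP-low cells, and highest in granulocytes. Erg was 2.38-fold higher in granulocytes than in GFP-low cells, 2.38-fold lower in Gfi1-deficient cells than in granulocytes, and under 2-fold in the other 4 comparisons. Fli1 read 9.28 in Gfi1-deficient cells, 9.88 in granulocytes, 9.97 in GFP-high cells and 9.44 in GFP-low cells. Its differences stayed within 1.61-fold at this probe set. A further probe set read 9.14, 9.34, 9.76 and 9.03 on those arrays, up to 1.67-fold apart. In both probe sets of Fli1 GFP-high cells were highest. Of 7 measured megakaryocyte markers, 4 were above the floor on each array, with averages of 5.61 in Gfi1-deficient cells, 5.97 in granulocytes, 5.83 in GFP-high cells and 5.81 in GFP-low cells, so this list too was highest in granulocytes, by less than Erg. Its part in the Erg level was not tested.

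The gene order of the mouse assembly pairs these genes. Ets1 lies beside Fli1 on chromosome 9 and Ets2 beside Erg on chromosome 16, with 0 protein-coding genes between the members of a pair. In GFP-high minus GFP-low cells the log2 difference was 4.01 for Ets1 and 0.53 for Fli1, and 1.25 for Ets2 and 0.51 for Erg. In granulocytes minus GFP-low cells it was 3.78 for Ets1 and 0.43 for Fli1, and 3.01 for Ets2 and 1.25 for Erg. All of these were positive, and Ets1 and Ets2 had the larger difference of their pair in both comparisons, which share the GFP-low array. In Gfi1-deficient minus GFP-low cells the pairs were less alike. Ets1 had a bound of -1.15 there, beside -0.16 and 0.12 at the 2 probe sets of Fli1, and Ets2 had -1.06 beside 0 for Erg. In the remaining comparisons the members of each pair shared a sign.

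Spi1, the gene of PU.1, varied little. It read a log2 level of 10.85 in Gfi1-deficient cells, 11.62 in granulocytes, 10.99 in GFP-high cells and 10.85 in GFP-low cells. Granulocytes were highest, and the 3 Gr1-low populations lay within 1.10-fold of each other. Spi1 was 1.70-fold lower in Gfi1-deficient cells than in granulocytes, and granulocytes were 1.55-fold above GFP-high cells and 1.70-fold above GFP-low cells. The deposited values of Spi1 in Gfi1-deficient and GFP-low cells were identical to the last decimal, and so were those of Erg, as for 99 of the 22690 probe sets on these 2 arrays.

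**Figure D2:**
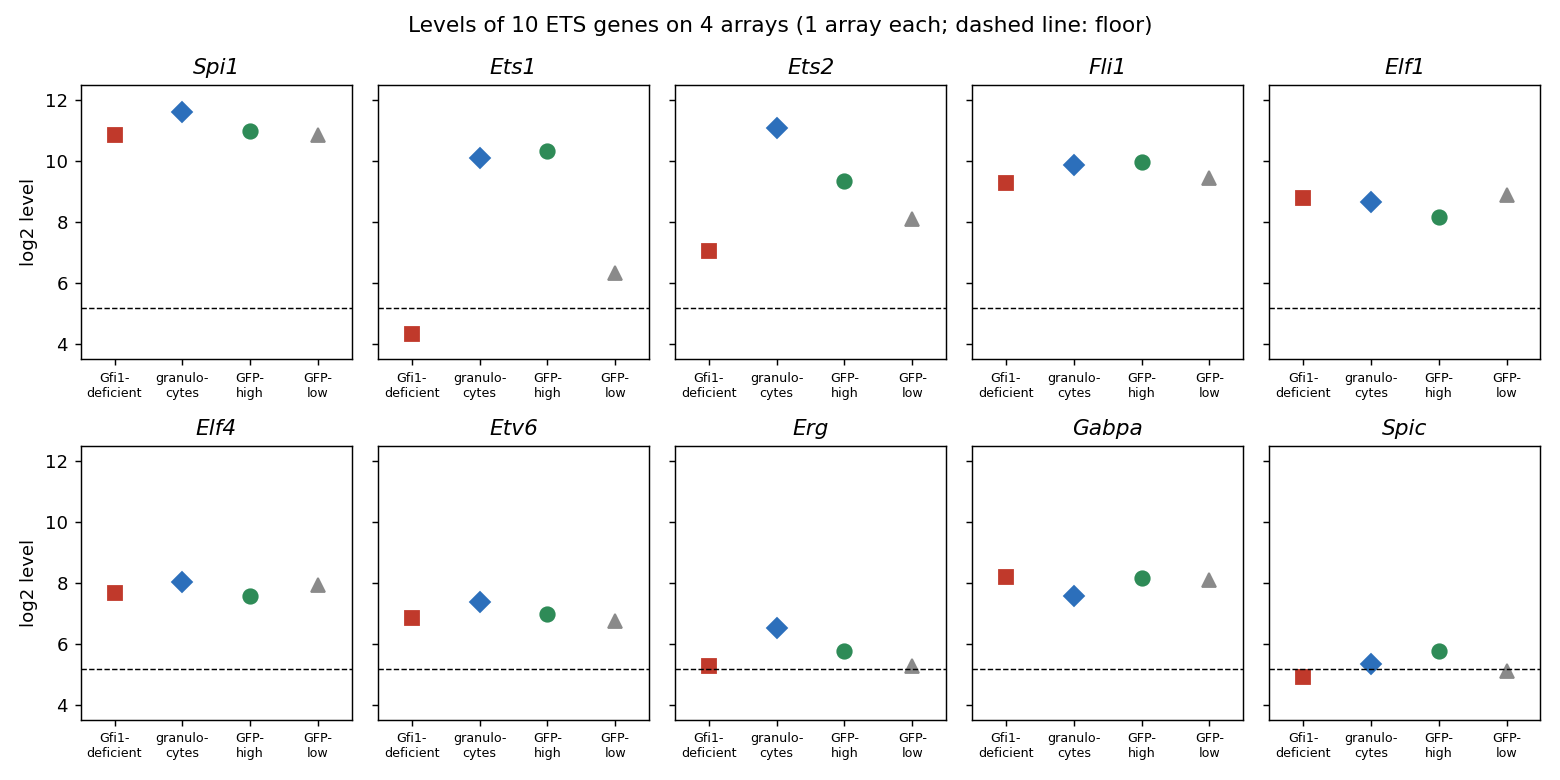
Log2 level (vertical axis) of each of the 10 ETS genes on the 4 arrays, 1 point for each array, with the floor of 5.18 as a dashed line. Ets1 and Ets2 spread widely, with Gfi1-deficient cells lowest at 4.32 and 7.03, while Spi1 stays between 10.85 and 11.62.

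Of 22 measured genes known as targets of PU.1, 17 had a wider range over the arrays than Spi1, whose range was 0.77 on the log2 scale, and 5 did not. The share of all genes with so wide a range was not counted, so 17 of 22 is not shown to be particular to the targets. Between Gfi1-deficient cells and granulocytes alone, the median absolute log2 difference of all genes was 0.62. By the 2-fold rule, 6 of 22 measured targets were higher and 5 lower in Gfi1-deficient cells than in granulocytes, where 20.3% of all genes were higher and 11.2% lower. Against GFP-high cells, 8 of 21 were higher in Gfi1-deficient cells and 0 lower, with 9.53% and 7.81% of all genes. Against GFP-low cells, 0 of 21 reached 2-fold in Gfi1-deficient cells, where 1.91% of all genes did. In granulocytes, 10 of 21 were higher and 0 lower than in GFP-high cells, with 8.93% and 16.4% of all genes, and 5 of 22 were higher and 6 lower than in GFP-low cells, with 10.02% and 18.2%. In GFP-high cells, 1 of 21 was higher and 9 were lower than in GFP-low cells, with 9.03% and 9.61% of all genes. The median log2 difference of the targets was -0.61 in the last comparison, beside 0.026 for all genes.

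Of the 22 targets, 13 were lowest in GFP-high cells, 4 in GFP-low cells, 3 in Gfi1-deficient cells and 0 in granulocytes, and the other 2 were below the floor on more than 1 array. The share of all genes lowest on each array was not counted, so these counts are not shown to be particular to the targets. Csf1r is also one of the monocyte markers, which were low in GFP-high cells. The 6 with the widest range are given here. Csf1r, which encodes the M-CSF receptor, read 12.62 in Gfi1-deficient cells, 10.99 in granulocytes, 8.86 in GFP-high cells and 12.90 in GFP-low cells. Ctss, a lysosomal protease of antigen presentation, read 13.01, 10.40, 8.98 and 13.13 on those arrays. Fcgr1, the high-affinity IgG receptor, read 9.64, 6.15, 5.37 and 9.51. All 3 were high in Gfi1-deficient and GFP-low cells. Cd68, a lysosomal protein of macrophages, was 14.4-fold lower and Tlr2, a receptor for bacterial lipoproteins, 8.46-fold lower in GFP-high than in GFP-low cells. Il1b, the gene of interleukin-1 beta, had another order, with 7.63 in Gfi1-deficient cells, 12.56 in granulocytes, 6.80 in GFP-high cells and 7.92 in GFP-low cells.

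**Figure D3:**
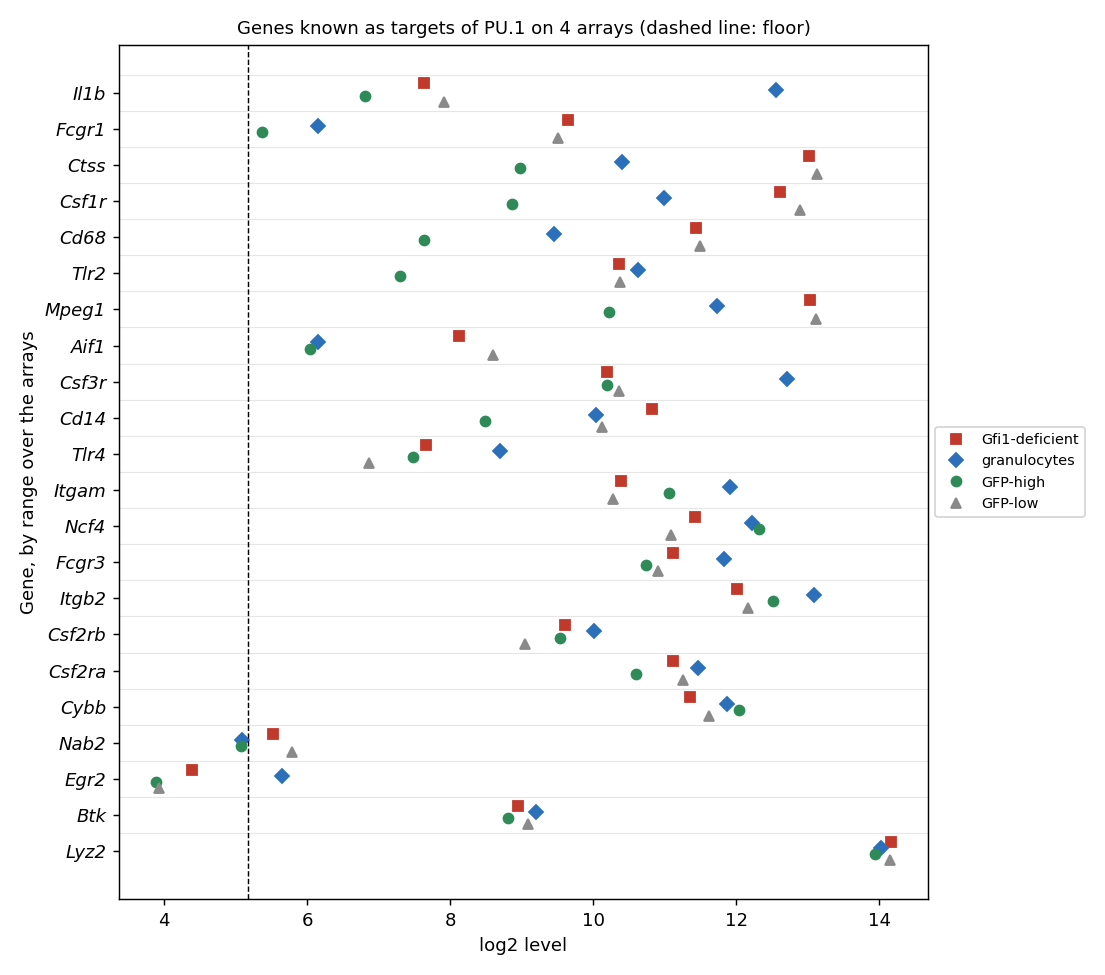
Log2 level (horizontal axis) of 22 genes known as targets of PU.1, sorted by their range over the arrays, with 1 point for each array and the floor of 5.18 as a dashed line. Csf1r, Ctss, Fcgr1, Cd68 and Mpeg1 lie high in Gfi1-deficient and GFP-low cells, and Il1b and Csf3r are highest in granulocytes.

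Of 15 measured partners and antagonists of ETS factors, 11 had a wider range than Spi1 and 4 did not. The share of all genes was not counted here either. Irf8, which binds DNA together with PU.1 in monocyte precursors, read 10.80 in Gfi1-deficient cells, 7.23 in granulocytes, 7.09 in GFP-high cells and 10.80 in GFP-low cells. Irf4, its relative with the same partner, read 5.99, 5.85, 4.24 and 7.06 on those arrays, with Gfi1-deficient cells 2.10-fold below GFP-low cells. Irf4 is also a factor of plasma cells, and the plasma cell markers Jchain and Igha in Gfi1-deficient cells lay 3.23-fold and 9.66-fold below GFP-low cells. Of 6 plasma cell markers, 3 were above the floor in Gfi1-deficient cells and 4 on each other array, with averages of 6.85 in Gfi1-deficient cells, 6.89 in granulocytes, 6.79 in GFP-high cells and 7.66 in GFP-low cells. Their part in the Irf4 level was not tested. Cebpa, a factor of early granulocyte and monocyte precursors, read 10.27 in Gfi1-deficient cells, 8.47 in granulocytes, 8.77 in GFP-high cells and 10.51 in GFP-low cells. Cebpb, a C/EBP factor of mature myeloid cells, read 12.10, 12.55, 10.90 and 12.33. Myb, a factor of dividing progenitors that cooperates with ETS proteins, read 7.86 in Gfi1-deficient cells, 9.19 in granulocytes, 10.88 in GFP-high cells and 7.63 in GFP-low cells. Gfi1 itself read 5.18, 7.31, 10.31 and 3.74, just below the floor in Gfi1-deficient cells and below it in GFP-low cells. Its order was not that of Ets1, which was 1.18-fold apart between granulocytes and GFP-high cells where Gfi1 was 8.00-fold lower in granulocytes. Of 15 measured genes of this list, 8 were at least 2-fold apart between GFP-high and GFP-low cells, where 18.6% of all genes were. The 8 include Gfi1, whose reporter was used to split these populations, so its difference came with the sort. Between Gfi1-deficient and GFP-low cells the count was 1 of 14, Irf4, with 1.91% of all genes. It was 2 with the floor at the 20th percentile. With the floor at the 60th percentile or with averaged probe sets it was 0, so the Irf4 call depended on these settings.

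Elf1 and Elf4 are relatives that act in lymphocytes and blood stem cells, and Elf4 is known to restrain the division of T cells. Elf1 read 8.78 in Gfi1-deficient cells, 8.65 in granulocytes, 8.16 in GFP-high cells and 8.88 in GFP-low cells. GFP-high cells were lowest, by 1.53-fold against Gfi1-deficient cells and by 1.64-fold against GFP-low cells. Elf4 read 7.66, 8.01, 7.57 and 7.93 on those arrays, and a dimmer probe set 6.48, 6.76, 6.54 and 6.74. Its differences stayed within 1.36-fold. Elf4 lies on the X chromosome, for which the array of Gfi1-deficient cells stood apart in Xist. Etv6, a repressor needed to keep blood stem cells in the bone marrow, read 6.85 in Gfi1-deficient cells, 7.35 in granulocytes, 6.98 in GFP-high cells and 6.75 in GFP-low cells. It was highest in granulocytes, by 1.52-fold over GFP-low cells.

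Spic, a relative of Spi1 that is required for the iron-recycling macrophages of the spleen's red pulp, was at the edge of detection. It read 4.91 in Gfi1-deficient cells, 5.33 in granulocytes, 5.76 in GFP-high cells and 5.11 in GFP-low cells, and its dimmer probe set was below the floor on all 4 arrays. GFP-high cells were highest, by at least 1.497-fold over GFP-low and over Gfi1-deficient cells. Of 11 measured genes of red pulp macrophages, 8 were above the floor in Gfi1-deficient cells, 9 in granulocytes, 11 in GFP-high cells and 9 in GFP-low cells, and their averages were 6.43, 7.34, 8.04 and 6.82. Vcam1, an adhesion molecule, read 6.26 in Gfi1-deficient cells, 7.17 in granulocytes, 10.66 in GFP-high cells and 6.07 in GFP-low cells. Slc40a1, the iron exporter ferroportin, read 5.83, 11.43, 10.64 and 6.77 on those arrays. C1qc, a chain of complement C1q, read 5.07, 6.90, 8.18 and 5.88. The average of the list was thus highest in the population with the highest Spic reading, with 6 of 11 genes higher in GFP-high than in GFP-low cells by the 2-fold rule. Another 2 were lower by it, Adgre1, the gene of the macrophage antigen F4/80, which read 9.88 in Gfi1-deficient cells, 8.15 in granulocytes, 7.55 in GFP-high cells and 9.98 in GFP-low cells, and Hmox1, the heme-degrading enzyme, with 9.36, 8.87, 7.64 and 9.19. Both were lowest in GFP-high cells. Of all genes, 9.03% were 2-fold or more higher in GFP-high than in GFP-low cells and 9.61% lower. The part of macrophages in the Spic level was not tested.

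Of 16 further ETS genes, 14 were measured, and 8 were above the floor in Gfi1-deficient cells, 10 in granulocytes, 7 in GFP-high cells and 9 in GFP-low cells. Elk3, a repressor of the ternary complex group that binds beside serum response factor, read 8.58 in Gfi1-deficient cells, 6.40 in granulocytes, 5.36 in GFP-high cells and 8.503 in GFP-low cells. It was 8.83-fold lower in GFP-high and 4.30-fold lower in granulocytes than in GFP-low cells, the opposite direction to Ets1. Etv3, a repressor of cell division in macrophages, read 7.67, 7.34, 6.56 and 7.69 on those arrays, and was 2.20-fold lower in GFP-high than in GFP-low cells. Elk3 and Etv3 were the 2 of 9 further ETS genes at least 2-fold apart between GFP-high and GFP-low cells, with 18.6% of all genes. This count was 1 with the floor at the 60th percentile and 1 with averaged probe sets. Spib, the relative of Spi1 in B cells and plasmacytoid dendritic cells, read 4.31 in Gfi1-deficient cells, 6.67 in granulocytes, 4.56 in GFP-high cells and 5.46 in GFP-low cells. Spib was highest in granulocytes, as was the B cell list given above, whose part in it was not tested. The other 11 measured genes reached 2-fold in no comparison that had an array above the floor, or were below the floor on all arrays. Some of their differences are bounds, as for Elk1, which was above the floor in granulocytes alone, by 0.65 on the log2 scale.

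**Figure D4:**
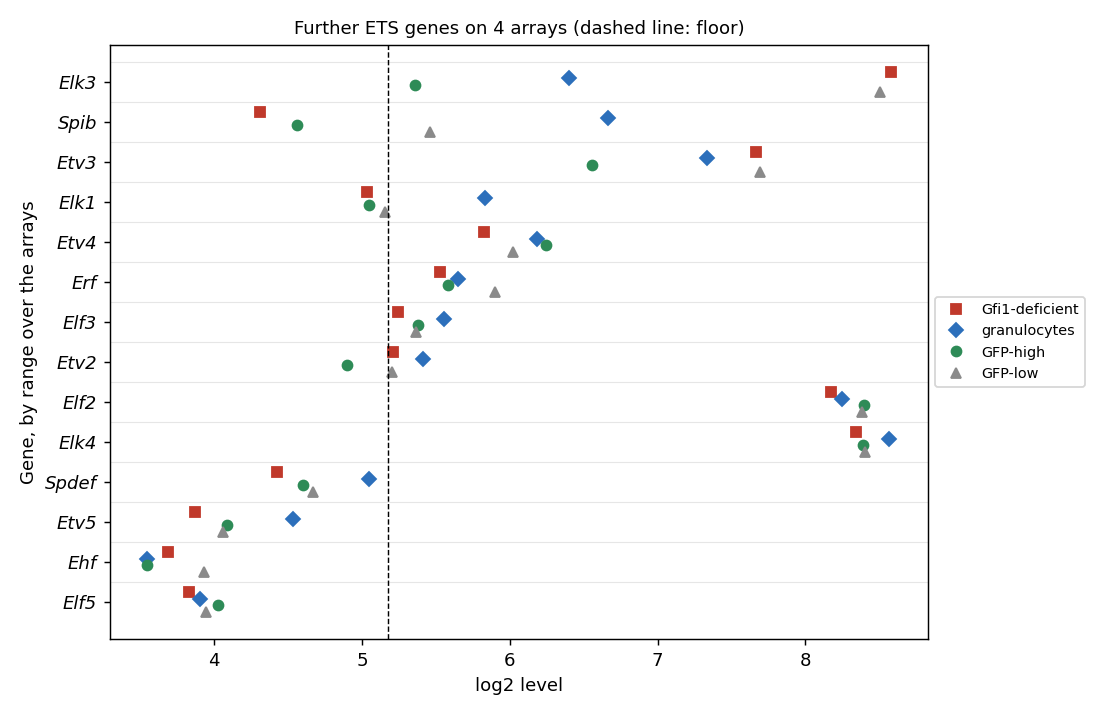
Log2 level (horizontal axis) of 14 further ETS genes, sorted by their range over the arrays, with 1 point for each array and the floor of 5.18 as a dashed line. Elk3 lies near 8.5 in Gfi1-deficient and GFP-low cells and at 6.40 and 5.36 in granulocytes and GFP-high cells.

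The counts of the 10 genes were set beside those of all genes above the floor on at least 1 array of a pair. Of the 10, 8 were above the floor in Gfi1-deficient cells, 10 in granulocytes, 10 in GFP-high cells and 9 in GFP-low cells. Between Gfi1-deficient cells and granulocytes 3 of 10 were at least 2-fold apart, Ets1, Ets2 and Erg, where 31.5% of all genes were. Between Gfi1-deficient and GFP-high cells the count was 2 of 10, Ets1 and Ets2, against 17.3% of all genes. Between granulocytes and GFP-high cells it was 1 of 10, Ets2, against 25.3%, and between granulocytes and GFP-low cells 3 of 10, Ets1, Ets2 and Erg, against 28.2%. Between GFP-high and GFP-low cells it was 2 of 10, Ets1 and Ets2, against 18.6%. These 5 counts are near the background or below it and say nothing particular about the family. Between Gfi1-deficient and GFP-low cells, the pair of arrays with the fewest genes apart, it was 2 of 9, Ets1 and Ets2. This count was 1 with the floor at the 60th percentile and 1 with averaged probe sets, where Ets1 differed by -0.43 on the log2 scale. Of 8010 genes, 1.91% were 2-fold apart there and 1.27% were lower by that much in Gfi1-deficient cells, as both of these were.

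Median log2 differences of the 10 genes were small beside those of Ets1 and Ets2. The median was -0.54 for Gfi1-deficient cells minus granulocytes, with 0.0092 for all genes, and -0.32 for Gfi1-deficient minus GFP-high cells, with -0.017 for all genes. Gfi1-deficient minus GFP-low cells gave -0.096, with 0.032 for all genes. For granulocytes it was 0.40 minus GFP-high cells and 0.52 minus GFP-low cells, with 0.033 and 0.00037 for all genes, and for GFP-high minus GFP-low cells it was 0.37, with 0.026 for all genes. The comparisons share arrays, so these medians do not stand on separate evidence.

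**Figure D5:**
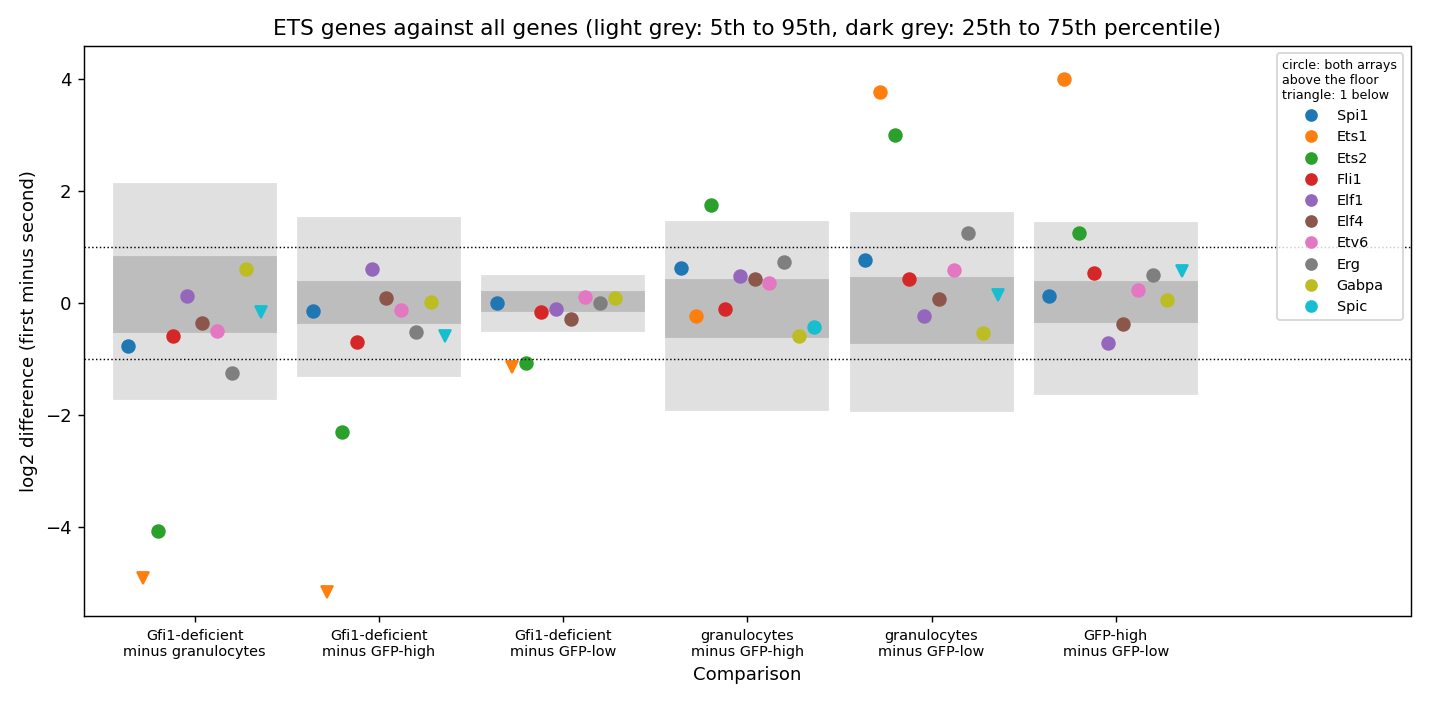
Log2 difference (vertical axis, first population minus second) of each ETS gene in the 6 comparisons (horizontal axis), with triangles for bounds, dotted lines at 2-fold, and grey boxes for the spread of all genes. Ets1 and Ets2 lie outside the light box, which holds the 5th to 95th percentile, in Gfi1-deficient cells minus each other population, and the other genes lie mostly within it.

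The scatter between probe sets of a gene gave a yardstick for these sizes in the absence of replicates. For each gene with at least 2 probe sets above the floor on both arrays, the log2 differences of its 2 brightest were subtracted from each other, and the SD of this value over genes was scaled to a single probe set. Spread between animals is not part of it. This SD was 0.16 for Gfi1-deficient minus GFP-low cells, 0.27 for GFP-high minus GFP-low and for Gfi1-deficient minus GFP-high cells, 0.32 for granulocytes minus GFP-high cells, 0.35 for granulocytes minus GFP-low cells and 0.39 for Gfi1-deficient cells minus granulocytes. When each gene's arrays were put in order, every step between neighbours of Ets2 exceeded 2 SD. For Ets1 the steps between granulocytes and GFP-low cells and between Gfi1-deficient and GFP-low cells did, and for Erg that between granulocytes and GFP-high cells. No step between neighbours did so for Spi1, Fli1, Elf1, Elf4, Etv6, Gabpa or Spic. Arrays further apart in the order did exceed 2 SD for some of these genes. Spi1 differed by 0.77 in granulocytes minus GFP-low cells on the log2 scale. In Gfi1-deficient minus GFP-high cells Fli1 differed by -0.69 and Elf1 by 0.62. In GFP-high minus GFP-low cells Elf1 differed by -0.71 and Spic by at least 0.58.

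The genes with the pattern most like Ets1, Ets2 and Erg were sought by the largest gap between the centred, floored levels of a pair of genes over the 4 arrays. For Ets1, among 8620 genes, they were Adpgk, an ADP-dependent glucokinase, with a largest gap of 0.16 on the log2 scale, and Syne1, a protein of the nuclear envelope, with 0.25. Adpgk read 6.78 in Gfi1-deficient cells, 11.73 in granulocytes, 11.67 in GFP-high cells and 7.65 in GFP-low cells. For Ets2, among 7214 genes above the floor on every array, they were Egr1, an immediate early transcription factor, with 0.33, and Dab2ip, a Ras GTPase-activating protein, with 0.44. Egr1 read 7.71 in Gfi1-deficient cells, 11.65 in granulocytes, 9.93 in GFP-high cells and 8.25 in GFP-low cells. For Erg they were Ostf1, an SH3 protein first described in osteoclasts, with 0.020 and Sqor, a mitochondrial enzyme of sulfide oxidation, with 0.035.

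Some granulocyte markers differed between Gfi1-deficient and GFP-low cells as Ets1 and Ets2 did. In Gfi1-deficient cells 4 of 10 lay 2-fold or more below GFP-low cells and 0 that far above them. Of all genes, 1.27% lay that far below and 0.64% that far above. Ltf, the gene of the granule protein lactoferrin, read 7.36 in Gfi1-deficient cells, 14.10 in granulocytes, 14.07 in GFP-high cells and 12.18 in GFP-low cells. Camp, the cathelicidin gene, read 7.37, 13.96, 14.18 and 12.41 on those arrays. Both were lowest in Gfi1-deficient cells, where Ets1 and Ets2 were also lowest. The other 6 markers were within 2-fold, and of these Mmp8, a neutrophil collagenase, read 11.71 in Gfi1-deficient and 11.001 in GFP-low cells, and Il1r2, a decoy receptor for interleukin-1, 6.69 and 6.31. The part of granulocytic cells within the GFP-low fraction in the lower Ets1 and Ets2 of Gfi1-deficient cells was not tested.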

How the data were processed

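RNA of 4 sorted populations was measured on 1 array each. Per the labels' protocols, total RNA was isolated with TRIzol and 6 µg gave biotin-labelled cRNA for Affymetrix arrays. The values deposited by the authors were taken as log2, from their range of 2.70 to 14.50. Log base, probe set summary and normalization: not given in the sources used here. Array medians ran from 5.91 to 6.01, and no scaling was added. Arrays have no read depth, and their number limits the precision.

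The platform annotation gave 20393 probe sets 1 gene, 691 several (not used for names) and 1606 none. Symbols were updated by gene identifier to GRCm38.p6. A gene was read at its probe set with the highest mean. Genes were counted by an absolute log2 difference of 1 or more. Alternatives were floors at the 20th and 60th percentile, quantile normalization, median centring and averaged probe sets.

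All 10 ETS genes are named. From other lists up to 6 genes by range were eligible, with further ETS genes that reached 2-fold and the 2 genes most like each ETS gene that did. Pax5, Ebf1, Ncr1, the T cell genes below the floor, Gabpb1, Csf3r, Mpeg1, Hmox1 and Mmp8 were named after their values were seen. The members and lists were chosen with earlier results of these data known. Counting was tested on simulated data. Tools were Python 3.11.15, numpy 2.4.6 and pandas 2.3.3.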

Additional observations from a re-analysis of the deposited data

How the results depend on the processing

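Of the 48 counts of ETS genes at least 2-fold apart that were recomputed under 8 alternatives, 43 stayed within 1.5 times. In Gfi1-deficient minus GFP-low cells the count was 1 instead of 2 with the floor at the 60th percentile, with averaged probe sets, and with the dimmest probe set of each gene. In Gfi1-deficient minus GFP-high and in GFP-high minus GFP-low cells it was 1 instead of 2 with the dimmest probe set. That alternative, the one with no floor and the one that dropped X-linked and Y-linked genes were chosen after seeing the data. All 13 differences of at least 2-fold kept their sign in the 87 recomputed values that could be had, and 82 of these stayed at 2-fold or more. The other 5 were all of Ets1, at a log2 difference of -0.43 in Gfi1-deficient minus GFP-low cells with averaged probe sets, and with its dimmest probe set at -0.71 in Gfi1-deficient cells minus granulocytes, -0.48 in Gfi1-deficient minus GFP-high, 0.71 in granulocytes minus GFP-low and 0.48 in GFP-high minus GFP-low cells. These are bounds at a dim probe set, or means that include it, and with the floor at the 60th percentile Ets1 was unmeasured in Gfi1-deficient and GFP-low cells. At that floor Erg was unmeasured on all 4 arrays, so neither of its 2-fold differences could be had. The count there was 2 instead of 3 in Gfi1-deficient cells minus granulocytes and in granulocytes minus GFP-low cells. Among further lists, 9 of 30 recomputed counts of other ETS genes and 5 of 30 of partners moved by more than 1.5 times, and 0 of 30 of PU.1 targets. No paired analysis was possible because each group has 1 array. Dim signal limits Spic and Erg, which lie close to the floor, and leaving out an array was not possible with 1 in each group.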
